A study of Mus musculus with 4 samples.

Results

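Single-cell RNA of mouse aorta was compared between 1 library from LysM-DKO/ApoE-/- mice on western diet and 1 library from LysM-DKO mice on normal diet. Of 70795 deposited barcodes in the 4 libraries of the series, 27278 were kept because they held at least 2000 unique molecular identifiers (UMIs, each 1 counted RNA molecule) and at most 10% mitochondrial UMIs. The libraries compared here gave 13835 of these, 6087 on normal and 7748 on western diet, and 11799 of them passed at least 1 of 4 gates on marker UMIs. The gates were at least 5 UMIs of C1qa, C1qb and C1qc (macrophage), at least 2 of Pecam1 and Cdh5 (endothelial), at least 3 of Pdgfra and Serpinf1 (fibroblast) and at least 5 of Myh11 and Cnn1 (smooth muscle). With 1 library per group no test between diets was possible, and every interval below is a 95% interval for counting error only. LysM-DKO is the genotype as labelled. The series title concerns epsins, but the labels do not spell out which alleles were deleted or what drove the deletion, and the age and number of mice per library are not given in the sources used here. The other groups were WT on normal diet and WT/ApoE-/- on western diet, again 1 library each, and their values are set beside the LysM-DKO values where they help. The ApoE genotype changed together with the diet, so diet and ApoE loss cannot be told apart.

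Apolipoprotein E lets remnant lipoproteins be cleared from the blood, and mice without it develop atherosclerotic plaques, faster when the diet is rich in fat and cholesterol. In a plaque, macrophages take up lipoprotein, store its cholesterol and export it again through the transporters ABCA1 and ABCG1; loaded cells are known for Trem2, Gpnmb and Spp1, whereas resident arterial macrophages are known for Lyve1, Folr2 and Cbr2. Smooth muscle cells of the media can lose their contractile proteins and take on a matrix-forming or cartilage-like state, and adventitial fibroblasts are a source of collagen, complement and chemokines. Epsins are endocytic adaptors that link ubiquitinated cargo to clathrin.

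The genotype and sex readouts separated the libraries in every gate. Apoe stood at 5343 CPM (UMIs of a gene per 1000000 UMIs summed over the gate) on normal diet and 8.83 on western diet in the macrophage gate, from 5715 and 6 UMIs, and at 4232 and 5.35 in the fibroblast gate. Xist, the RNA that silences an X chromosome, was between 912 and 1224 CPM in the 4 gates on normal diet and between 0 and 1.40 on western diet. Ddx3y, a Y-linked helicase gene, was at 0 in all 4 gates on normal diet and between 79.4 and 141 CPM on western diet. The normal diet library therefore read as female and the western diet library as male, so sex cannot be told apart from diet either. The WT libraries split the same way, with Xist at 1760 and 0.296 CPM and Ddx3y at 0 and 70.7 in the macrophage gate, so wherever they are set beside the LysM-DKO values they carry the same confounding. Lyz2, which encodes lysozyme M, stood at 949 and 781 CPM in the macrophage gate of the LysM-DKO libraries, on normal and western diet, against 3646 and 4277 in the WT libraries. The epsin genes were thinly covered there: Epn1 gave 59 and 29 UMIs (55.2 and 42.7 CPM) and Epn2 gave 34 and 9 (31.8 and 13.2 CPM). A 3' count need not fall when another part of a gene is deleted, so these epsin values do not check the genotype.

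Blood and lymphoid RNA was plentiful in the normal diet library and near 0 in the western diet library, which touches every gate. Over the barcodes outside the macrophage gate, 7 erythroid markers summed to 18231 CPM on normal diet and 48.0 on western diet, and 7 B cell markers to 2270 and 3.05. Barcodes in no gate were 1845 on normal diet (30.3%) and 191 on western diet (2.47%), and 37.9% and 3.14% of them held at least 3 B cell marker UMIs after thinning to 2000 UMIs per barcode. Kept barcodes had a median of 4503 UMIs on normal and 6887 on western diet, and the file headers name different software versions for the diets. The libraries shared 8 kept barcode sequences.

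Smooth muscle barcodes made up far more of the western diet library. The Myh11 and Cnn1 gate took 52.7% (51.4 to 53.9) of the kept normal diet barcodes and 88.9% (88.2 to 89.6) of the kept western diet barcodes, and after thinning the shares were 36.7% and 85.0%. Macrophage barcodes were 186 of 6087 on normal diet (3.06%) and 122 of 7748 on western diet (1.57%), a difference of -1.48 percentage points (-2.01 to -0.977). The macrophage share thus lay lower on western diet in LysM-DKO, while in WT it was 1.29% on normal and 7.89% on western diet; whether the genotypes differ was not tested. Fibroblast barcodes were 12.3% and 8.0%, and Pecam1/Cdh5 barcodes 13.7% and 5.18%. Thinned, these 3 gates held 2.73% and 1.48%, 7.41% and 4.72%, and 6.64% and 1.55% of kept barcodes on normal and western diet. All 4 shares use all kept barcodes as the denominator, which on normal diet includes the lymphoid and erythroid barcodes described above.

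**Figure D1:**
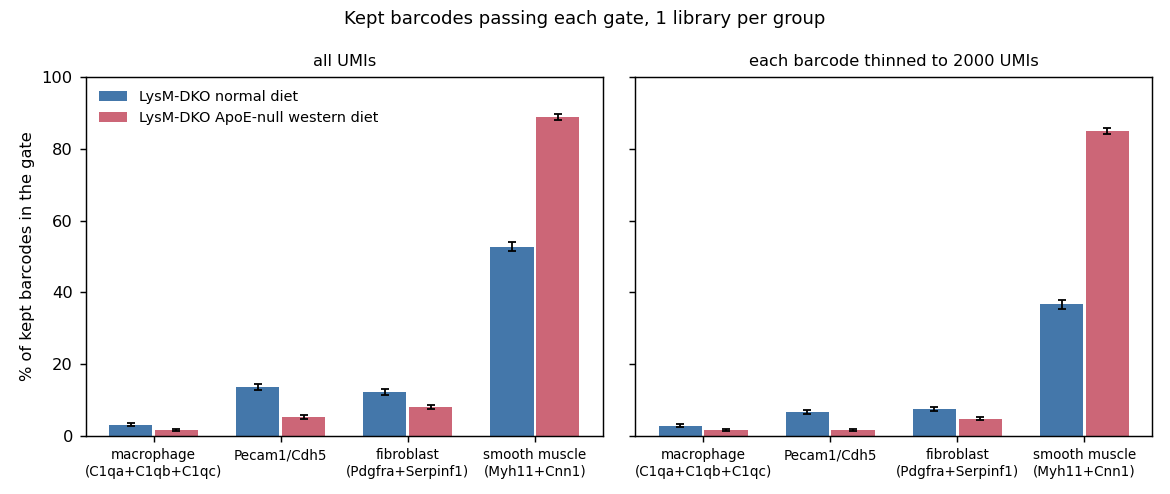
Share of kept barcodes (%) passing each gate in the LysM-DKO normal diet and LysM-DKO ApoE-null western diet libraries, with all UMIs (left) and thinned to 2000 UMIs (right); bars are shares of 1 library each and whiskers exact binomial 95% intervals for counting error. The smooth muscle gate holds 52.7% against 88.9% of barcodes, and the other 3 gates are smaller on western diet in both panels.

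All 4 gates carried their cell types' markers above the level in other barcodes, and the macrophage, fibroblast and Pecam1/Cdh5 gates also carried smooth muscle markers. All 10 macrophage markers outside the gate genes, among them Csf1r and Adgre1, were above their level in the other barcodes in both libraries, and their sum was 6455 CPM on normal and 8120 on western diet. Smooth muscle markers in the same gate summed to 5067 and 5578 CPM, and to 3277 and 1346 over barcodes in exactly 1 gate. The 10 fibroblast markers summed to 28968 and 24641 CPM in the fibroblast gate, where 28.6% and 25.5% of barcodes passed another gate. Smooth muscle markers there summed to 6662 and 7951 CPM, and to 3446 and 2038 over barcodes in exactly 1 gate. In the smooth muscle gate the 10 smooth muscle markers summed to 29307 and 41944 CPM. In the Pecam1/Cdh5 gate the 10 endothelial markers were all above their level outside and summed to 977 and 419 CPM, beside 20397 and 25017 CPM of smooth muscle markers, and 59.3% and 84.3% of its barcodes passed another gate too. Because of this mixture it is called the Pecam1/Cdh5 gate below and given no cell type name. At exactly 2 Pecam1 and Cdh5 UMIs it held 327 and 186 barcodes, with 994 and 927 more just below. The macrophage gate held 4 and 0 barcodes at exactly 5 UMIs, with 8 and 1 just below. Of the macrophage barcodes, 35.5% on normal and 13.9% on western diet passed another gate, the smooth muscle gate in 57 and 14 barcodes, so values over barcodes in exactly 1 gate (120 and 105 macrophage barcodes) are given where they differ.

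In the macrophage gate, lipid-associated genes were higher and chemokine and interferon-response genes lower on western diet. Ratios are log2 of western over normal CPM with 0.5 UMIs added, centred on the median of the genes measured in the gate, a shift of 0.08, and a gene counts as measured at a mean of at least 50 CPM over both libraries. Of 3037 measured genes, 119 were at least 2-fold higher (3.92%) and 174 at least 2-fold lower (5.73%), together 9.65%. In 24 lipid-associated genes the same counts were 13 and 1, with a median ratio of 1.44 where the median of all measured genes is 0 by construction. Gpnmb, a lysosomal membrane glycoprotein gene of loaded macrophages, stood at 19.6 CPM (12.2 to 30.0) on normal and 896 CPM (826 to 970) on western diet, a ratio of 5.39. Spp1, which encodes osteopontin, was at 96.3 and 1695 CPM (ratio 4.05), and Trem2, a lipid-sensing receptor gene, at 77.6 and 572 CPM (ratio 2.79). For all of them the intervals of the libraries lie far apart. The thinned share of barcodes with a UMI was 1.61% and 18.9% for Gpnmb, 8.06% and 23.8% for Spp1, and 12.9% and 41.8% for Trem2. Unthinned, the western diet shares were 23.0%, 32.8% and 60.7%, so many barcodes of the gate held no UMI of Gpnmb or Spp1.

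Smaller members of the lipid-associated list were near 0 on normal diet. Atp6v0d2, a subunit of the vesicular proton pump, gave 1.87 CPM on normal and 112 on western diet, and Syngr1, a vesicle protein gene, 2.80 and 160. Secreted and surface products followed: Mmp12, macrophage elastase, was at 124 and 655 CPM, Lgals3, galectin-3, at 612 and 2105, Lpl, lipoprotein lipase, at 50.5 and 202, and Cd9, a tetraspanin, at 155 and 569. Fabp4, a fatty acid carrier, was the 1 member at least 2-fold lower, at 457 and 199 CPM (ratio -1.28), and its level in barcodes outside the gate was 930 and 272. Fabp5, its paralog, was at 914 and 1856 CPM (ratio 0.94) over all macrophage barcodes but had a ratio of 3.13 over barcodes in exactly 1 gate and of -0.04 at no more than 5% mitochondrial UMIs. The list's median was 0.87 without barcodes holding at least 3 T cell, B cell or neutrophil UMIs. On western diet Il7r gave 125 of the 144 CPM of T cell markers in the gate, while Cd3e, Cd3d, Cd3g, Trac and Cd8a were at 0. That filter thus does not single out barcodes with T cell RNA there. The WT libraries gave a median of 2.63 for the same 24 genes.

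**Figure D2:**
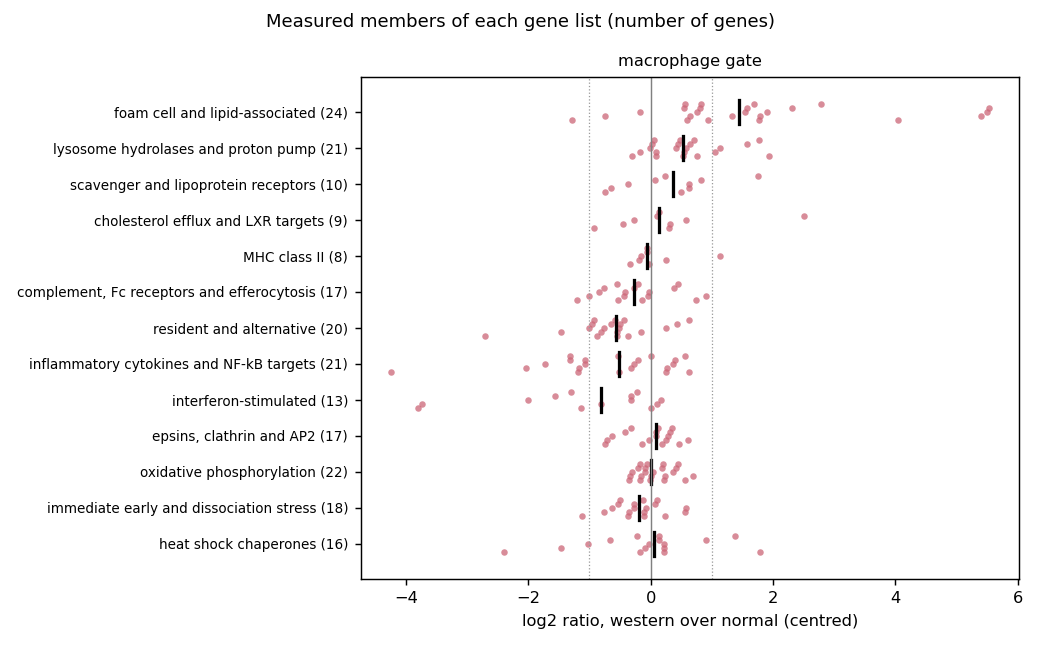
Centred log2 ratio of western over normal diet for each measured gene of 13 lists in the macrophage gate; points are genes, black ticks list medians, dotted lines mark 2-fold, and the number of measured genes follows each list name. Lipid-associated genes reach 5.54, and interferon-stimulated genes reach -3.81.

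Cholesterol efflux and LXR response genes stayed close to the median gene as a list, while the transporter genes Abcg1 and Abca1 were higher to different degrees. Of 9 measured genes of efflux and LXR response, only Abcg1 passed 2-fold, and the median ratio was 0.14. Abcg1, the transporter that loads cholesterol onto high-density lipoprotein, stood at 43.9 CPM (32.3 to 58.4) on normal and 268 CPM (230 to 310) on western diet, a ratio of 2.51, and a UMI was seen in 6.99% and 31.1% of thinned barcodes. Abca1, which acts on lipid-poor apolipoprotein, was at 379 and 602 CPM (ratio 0.58). Npc2, which moves cholesterol out of the lysosome, was at 710 and 941 CPM, and Mylip, an LXR target that directs degradation of the LDL receptor, at 388 and 216. In the WT libraries Abcg1 was at 23.8 and 349 CPM and Abca1 at 338 and 690. Insig1, a sterol-sensing brake on cholesterol synthesis, was the 1 measured gene of its 24-gene synthesis list, at 182 and 55.9 CPM (ratio -1.78). Among 10 measured scavenger and lipoprotein receptors, Lrp1 passed 2-fold, at 107 and 381 CPM (ratio 1.75); Cd36 was at 309 and 196, Msr1 at 54.2 and 102, and Cd68 at 304 and 499.

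Lysosomal genes lay mostly on the higher side. Of 21 measured hydrolases and proton pump subunits, 5 were at least 2-fold higher and 0 lower, and 18 had a positive ratio, with a median of 0.53. Among them were 4 cathepsin genes, Ctsl (429 and 1553 CPM, ratio 1.77), Ctsd (582 and 1846, 1.58), Ctss (891 and 2082, 1.14) and Ctsh (322 and 706, 1.05). Without barcodes holding T cell, B cell or neutrophil UMIs the ratio of Ctsl was 0.22 and that of Ctsd 0.87, with the limit from Il7r given above. Ctss was at 0.93 among barcodes with at most 5% mitochondrial UMIs. The promoters of Ctsd and Ctsl are shown because many lysosomal genes carry the palindrome CACGTG, in capitals, which the factor TFEB can bind. Each stretch is 100 of the 250 bases upstream of the gene's start and does not reach the start. The first matches begin 245 (Ctsd) and 236 (Ctsl) bases before it, and of the 2 matches of Ctsd the stretch shows 1. The bases are from RefSeq on GRCm38.p6, 5' to 3' on the gene's strand: chr7:142387978-142388077 and chr13:64370671-64370770, both on the minus strand.
Ctsd: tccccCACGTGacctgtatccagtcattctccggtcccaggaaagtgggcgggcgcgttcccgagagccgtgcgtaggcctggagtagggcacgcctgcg
Ctsl: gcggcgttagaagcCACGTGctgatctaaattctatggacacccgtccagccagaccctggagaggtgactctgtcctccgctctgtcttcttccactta
The motif was searched in the window of 250 bases before each start, and being a palindrome it reads the same on both strands. It was present for 6 of the 16 lysosomal genes with an entry (Ctsa, Ctsd, Ctsl, Lamp1, Lgmn and Atp6v1a) and for 6.86% of all 27025 genes with one. A match describes these letters and is not evidence that a factor binds there.

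Interferon-stimulated genes were lower in the macrophage gate on western diet, led by antiviral effectors. Of 13 measured genes 6 were at least 2-fold lower and 0 higher, with a median ratio of -0.82 (-0.43 over barcodes in exactly 1 gate). Rsad2, which encodes viperin, stood at 865 CPM (810 to 922) on normal and 64.7 CPM (47.0 to 86.9) on western diet, a ratio of -3.81. Ifit1, an RNA-binding antiviral protein gene, was at 231 and 17.7 CPM (ratio -3.74), and Isg15, a ubiquitin-like modifier gene, at 185 and 48.5 (ratio -2.00). Oasl1, a repressor of Irf7 translation that is in no list, was at 793 and 102 CPM (ratio -3.04). The antigen-presenting members were closer to level: H2-K1 was at 2003 and 1206 CPM, B2m at 1325 and 1119 and H2-D1 at 1043 and 1184. The WT libraries gave Rsad2 at 1077 and 65.7 CPM and Ifit1 at 334 and 15.1. Promoters of Rsad2, Ifit1 and Isg15 are shown because they hold matches to a core of the interferon-stimulated response element, GAAA then any 2 bases then GAAA. It was searched on both strands (TTTC on the other), matches may overlap, and they are in capitals. The stretches are 100 bases from RefSeq on GRCm38.p6, 5' to 3' on the gene's strand: chr12:26456513-26456612 (minus), chr19:34640745-34640844 (plus) and chr4:156200837-156200936 (minus).
Rsad2: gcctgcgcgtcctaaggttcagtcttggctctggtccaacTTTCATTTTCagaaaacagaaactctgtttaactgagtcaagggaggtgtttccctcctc
Ifit1: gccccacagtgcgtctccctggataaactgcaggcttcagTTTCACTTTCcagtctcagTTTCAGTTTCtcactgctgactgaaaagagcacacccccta
Isg15: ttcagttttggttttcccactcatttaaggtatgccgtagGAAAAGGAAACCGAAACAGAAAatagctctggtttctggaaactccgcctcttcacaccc
In the same window as above, 5 of the 12 genes with an entry among these 14 held the motif (also Bst2 and B2m), against 3.46% of all 27025 genes with an entry.

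Chemokine and cytokine genes were the other lower group. Of 21 measured inflammatory genes, 9 were at least 2-fold lower and 0 higher, with a median ratio of -0.51. Ccl5, which recruits T cells, stood at 856 CPM (802 to 914) on normal and 47.1 CPM (32.2 to 66.5) on western diet, a ratio of -4.25; its level outside the gate was 231 and 2.88. The monocyte attractants Ccl7 and Ccl2 were at 1907 and 493 CPM and at 1039 and 483, and Ccl4 at 13973 and 4488. Cxcl2, a neutrophil attractant, was at 23158 and 10890 CPM (ratio -1.17, and -0.85 with each barcode weighted equally), and Tnf at 1417 and 715 (ratio -1.07). All 9 were among genes that the WT libraries gave lower on western diet as well, with Ccl4 at 22121 and 2633 CPM. The 18 measured immediate early genes, which tissue digestion can induce, had a median ratio of -0.19, and Egr1 was at 1653 and 805 CPM. The part of such a digestion response in the chemokine values was not tested. Hmox1, heme oxygenase, was at 2593 and 366 CPM (ratio -2.91) beside the erythroid sum of 4308 and 2.94 CPM in the same gate.

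**Figure D3:**
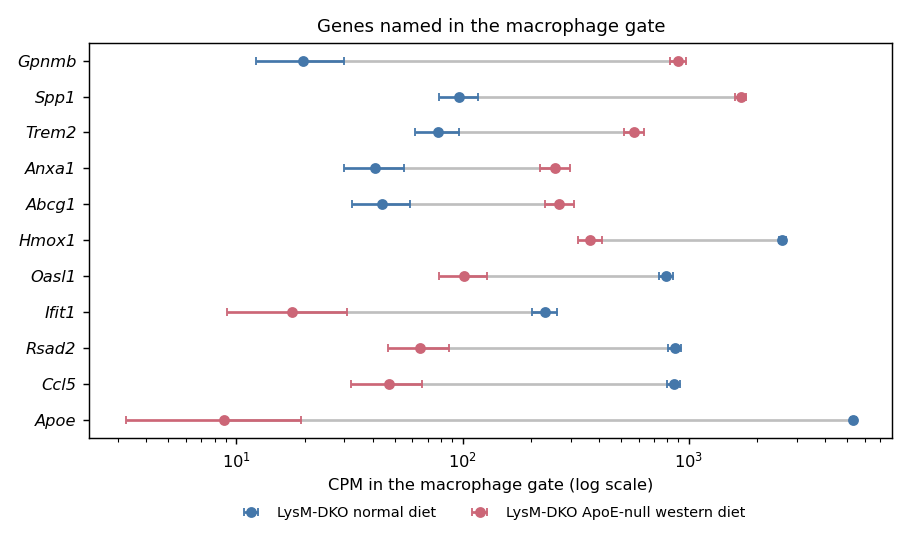
CPM (log axis) in the macrophage gate of genes named by rule, normal diet in blue and western diet in red, with exact Poisson 95% intervals for counting error in 1 library each. Apoe stands at 5343 and 8.83 CPM, and Gpnmb at 19.6 and 896 CPM.

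Resident-type genes were modestly lower and antigen presentation was level. Of 20 measured resident and alternative-activation genes, 3 were at least 2-fold lower and 0 higher, and the median ratio was -0.57. Ccl8, an eosinophil and monocyte attractant of resident cells, was at 859 and 138 CPM (ratio -2.71), Clec10a, a galactose lectin gene, at 177 and 67.7 (ratio -1.46, -0.85 at no more than 5% mitochondrial UMIs), and Cbr2, a carbonyl reductase gene, at 223 and 116 (ratio -1.02, -0.93 without centring). Mrc1, the mannose receptor gene, was at 1023 and 694 CPM, Pf4 at 884 and 531, and Selenop, the selenium carrier, at 1365 and 989. In WT the same 20 genes had a median of -1.74, with Mrc1 at 1090 and 268 CPM; the difference between genotypes was not tested. Of 8 measured genes of the MHC class II group only Ctss passed 2-fold, and the median was -0.05. Cd74, the invariant chain, stood at 7920 and 7339 CPM, H2-Aa at 4096 and 3900 and H2-Eb1 at 3641 and 3711. In WT, by comparison, Cd74 was at 5571 and 1862 CPM. Of 17 measured complement, Fc receptor and efferocytosis genes, C4b (243 and 112 CPM) and C5ar1 (246 and 129) were 2-fold lower, the latter at exactly the limit; C4b had a ratio of -0.65 at no more than 5% mitochondrial UMIs and C5ar1 of -0.92 without centring.

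Macrophage barcodes were sorted by UMIs of lipid-associated and of resident genes. A barcode was put in the lipid set with at least 2 UMIs over Trem2, Gpnmb, Syngr1 and Atp6v0d2, and in the resident set with at least 2 over Lyve1, Folr2, Cd163, Cbr2 and F13a1; these sets were chosen after the values were seen and are descriptions. The lipid set held 25 of 186 macrophage barcodes on normal diet (13.4%, 8.89 to 19.2) and 53 of 122 on western diet (43.4%, 34.5 to 52.7). After thinning it held 6 and 30 barcodes (3.23% and 24.6%). The resident set held 121 (65.1%) and 54 (44.3%), and 16 of the 25 and 11 of the 53 lipid-set barcodes, 8.60% and 9.02% of the gate, were in both sets. Within western diet, Spp1 was at 2871 CPM in the lipid set and at 0 in resident barcodes outside it, and Ctsd was at 2893 and 412. Abcg1 was at 398 CPM in the former and 12.7 in the latter, whereas Ccl4 was at 2163 and 8634 and Mrc1 at 167 and 2404. On normal diet the lipid-set barcodes had Spp1 at 53.6 CPM and Ctsd at 928, both under the western values of that set. Rsad2 was lower on western diet outside the lipid set too, at 801 CPM on normal and 105 on western diet, as was Ccl5 at 931 and 98.1. Outside the lipid set Hmox1 was at 2731 and 525 CPM.

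Endocytic and metabolic lists in the macrophage gate stayed close to the median gene, and heat shock genes were split. None of 17 measured epsin, clathrin and AP2 genes passed 2-fold, and their median ratio was 0.09: Clta, a clathrin light chain, was at 510 and 618 CPM, Cltc, the heavy chain, at 558 and 440, and Picalm, a clathrin assembly protein gene, at 508 and 530. Epn1 and Epn2 had means under 50 CPM and are not among these 17. From few UMIs their ratios were -0.44 (-1.15 to 0.21) and -1.29 (-2.59 to -0.26). Of 22 measured oxidative phosphorylation genes none passed 2-fold either, 11 having a positive and 11 a negative ratio, and the 15 glycolysis and hypoxia genes had a median of 0.09. Of 16 measured heat shock chaperones 2 were at least 2-fold higher and 3 lower. The inducible chaperones Hspa1b and Hspa1a were at 694 and 138 CPM and at 772 and 297, while the constitutive Hspa8 was at 2479 and 2335. Hspb1, a small heat shock protein of muscle, had a ratio of 1.79 over all macrophage barcodes and 0.14 over barcodes in exactly 1 gate. Over those single-gate barcodes the counts for all genes were 197 higher (6.68%) and 255 lower (8.64%) of 2951, and the lipid-associated median was 1.8. Anxa1, a pro-resolving annexin, was also named by the rule, at 41.1 and 256 CPM (ratio 2.54).

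Capillary-type transcripts were lower in the Pecam1/Cdh5 gate on western diet. Of 3380 measured genes, 49 were at least 2-fold higher (1.45%) and 107 lower (3.17%) on western diet, together 4.62% (6.48% and 6.54% over barcodes in exactly 1 gate). For 10 capillary and lipid-uptake genes the counts were 0 and 8, with a median ratio of -1.45 (-0.91 in the 338 and 63 barcodes in exactly 1 gate). Kdr, the main VEGF receptor, was at 144 and 16.5 CPM (ratio -3.19, -1.61 in exactly 1 gate). Gpihbp1, which holds lipoprotein lipase on capillary endothelium, was at 146 and 32.5 CPM (ratio -2.25, -0.86), and Fabp4 at 3660 and 821 (ratio -2.24, -1.05). Cd36, the fatty acid transporter, was at 318 and 74.2 CPM (ratio -2.18, -1.02). The named lower genes Adgrf5, an adhesion receptor of capillaries, and Slfn5 had ratios of -2.08 and -2.04, and of -0.92 and -0.78 in exactly 1 gate; Gdf15, a stress-induced hormone, was at 415 and 122 CPM. In sums over a gate, fewer endothelial cells among the barcodes and less RNA per cell cannot be told apart, and the endothelial marker sum itself was 977 and 419 CPM. Over barcodes in exactly 1 gate that sum was 2544 and 2243 CPM.

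Matrix genes were on the higher side in that gate, where other cells' markers were also higher. Of 18 measured mesenchymal genes 3 were at least 2-fold higher and 0 lower, with a median of 0.45: Fn1, fibronectin, was at 1066 and 3344 CPM, Col1a2 at 669 and 1522 and Col1a1 at 623 and 1365. Fibroblast markers in the gate summed to 4170 and 6721 CPM. Chondrocyte markers summed to 680 and 1454 CPM, of which Cytl1 alone gave 629 and 1106, against 107 and 148 outside the gate. Without barcodes holding at least 3 chondrocyte marker UMIs the ratios of Fn1, Col1a2 and Col1a1 were 0.86, 0.52 and 0.20. Because Cytl1 was above its outside level here, that filter does not separate cartilage-type barcodes from others of the gate. The named higher genes included Spp1 (20.4 and 617 CPM), Lum, a keratan sulfate proteoglycan (149 and 754), Frzb, a secreted WNT antagonist (42.1 and 209), Tnfrsf11b, osteoprotegerin (43.9 and 183), and Ltbp2 (79.5 and 301). Without the 5% of barcodes with the most UMIs the Spp1 ratio was 1.15 in place of 4.83. Vcam1, a leukocyte adhesion molecule gene, was at 417 and 821 CPM (ratio 0.90), and of 13 measured shear-stress and anticoagulant genes Procr and Plat passed 2-fold, at 76.8 and 33.0 and at 135 and 63.3 CPM; Klf4 was at 897 and 684. Of 7 measured adhesion genes Esam passed 2-fold, at 104 and 52.1 CPM, and Icam1 was at 204 and 144. Mmrn1, a gene of lymphatic endothelium, was at 89.6 and 31.4 CPM (ratio -1.59), but its ratio was 0.15 in exactly 1 gate.

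In the fibroblast gate, chemokine, complement and Pi16-type genes were lower and a few matrix genes higher. Of 3297 measured genes, 64 were at least 2-fold higher (1.94%) and 150 lower (4.55%), together 6.49%, after a shift of 0.13. Over barcodes in exactly 1 gate the shares were 1.94% and 4.34%. For 12 measured chemokines and cytokines the counts were 0 and 8 with a median of -1.55, for 14 complement and acute phase genes 0 and 7 with -1.03, and for 13 Pi16-adventitial genes 0 and 7 with -1.08. The complement and Pi16 medians were -0.89 and -0.94 without centring, and -0.58 and -0.86 without the 5% of barcodes with the most UMIs, so they sit at the 2-fold limit. Ccl11, eotaxin, was at 177 and 16.1 CPM (ratio -3.59), Il6 at 353 and 60.2 (-2.69), and Cxcl1 at 1809 and 675 (-1.56). Cxcl13, the B cell attractant of follicular stroma, was at 194 and 0.765 CPM, with a UMI in 2.14% and 0.161% of thinned barcodes, so its normal diet level came from few barcodes. Cxcl12 was at 695 and 440 CPM. Igfbp3, an IGF carrier, was at 180 and 12.2 CPM (ratio -4.00) with 169 and 8.36 in WT.

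Some acute phase genes of the fibroblast gate had other values in the WT libraries, a difference that was not tested. Ptx3, a long pentraxin, stood at 204 and 19.1 CPM in LysM-DKO (ratio -3.54) and at 192 and 19.5 in WT. Saa3, a serum amyloid gene, was at 207 and 22.9 CPM in LysM-DKO, while WT had 0.955 and 204. C3, the central complement component, was at 1204 and 359 CPM in LysM-DKO and 825 and 977 in WT, and Lbp, which binds endotoxin, at 151 and 38.2 against 22.9 and 223. Saa3 UMIs were in 1.34% and 0.323% of thinned LysM-DKO barcodes, so these levels rest on a few barcodes too, and without the 5% deepest barcodes the Lbp ratio was -0.72. Serping1, the C1 inhibitor, was at 1843 and 1171 CPM.

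Markers of the adventitial Pi16 state were lower to different degrees. Pi16 itself was at 447 and 206 CPM (ratio -1.25), Clec3b, tetranectin, at 240 and 82.8 (-1.67), Cd55, decay-accelerating factor, at 137 and 38.7 (-1.96), and Ly6a, the Sca-1 antigen, at 655 and 284 (-1.34). Sfrp4 and Sfrp2, secreted WNT modulators, were closer, at 496 and 407 and at 420 and 381 CPM. The named lower genes also held Plac8 (220 and 11.7 CPM, ratio -4.35, against 54.8 and 51.0 in WT), Has1, a hyaluronan synthase (302 and 50.2), Procr (190 and 29.8) and Hmox1 (680 and 91.5). Outside the gate Plac8 was at 181 and 2.40 CPM.

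Matrix lists as a whole stayed near the median gene. Of 25 measured collagens and elastic fibre genes 2 were higher and 2 lower by 2-fold, with a median of 0.07, and of 21 proteoglycan and matricellular genes 4 and 1, with 0.14. Col1a1 was at 2335 and 3665 CPM, Col3a1 at 2658 and 2485 and Dcn, decorin, at 9012 and 8279. The higher members were Col8a1, a network collagen (41.7 and 281 CPM, ratio 2.61), Emilin1 (61.0 and 148, 1.15), Tnc, tenascin-C (24.7 and 196, 2.85), Fn1 (943 and 4953, 2.26), Thbs1, thrombospondin (270 and 889, 1.59) and Prg4, lubricin (107 and 240, 1.02, but -0.13 in exactly 1 gate). Fn1 had a UMI in 52.5% and 45.2% of thinned barcodes, and without the 5% deepest barcodes its ratio was 0.79, that of Tnc 0.69 and that of Col8a1 1.10. The higher sums of these 3 genes thus rested in part on the deepest barcodes.

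Among other higher genes of the fibroblast gate, Spp1, Ereg, Frzb and Ltbp2 shared that feature. Spp1 was at 130 and 1931 CPM (ratio 3.75, 2.42 without the deepest barcodes), with a UMI in 3.22% and 7.90% of thinned barcodes. Ereg, an EGF receptor ligand, was at 9.19 and 215 CPM (ratio 4.4, 1.35 without the deepest barcodes), and Frzb at 50.2 and 308 (2.48, 1.38). C7, a component of the membrane attack complex, was at 25.7 and 207 CPM (ratio 2.87) and in 4.69% and 25.3% of thinned barcodes, the widest spread among these genes. Ltbp2, a TGF-beta binding protein, was at 117 and 483 CPM (ratio 1.91, 0.86 without the deepest barcodes). Beside these values, chondrocyte markers in the gate summed to 611 and 2877 CPM, and 11.5% and 25.6% of thinned barcodes held at least 3 of their UMIs; Col2a1, the cartilage collagen, was at 4.95 and 743 CPM. Without those barcodes 39 genes were at least 2-fold higher, and the ratios of Tnc, Ereg and Spp1 were 0.86, 1.83 and 3.11. The part of cartilage-type barcodes in the remaining differences was not tested.

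Protease and growth factor genes of the fibroblast gate were mixed. Of 10 measured metalloproteinases and inhibitors 2 were 2-fold lower, Adamts5 (320 and 139 CPM, ratio -1.33), an aggrecanase, and Adamts1 (867 and 471, -1.01). Timp1, a protease inhibitor, was at 168 and 360 CPM (ratio 0.96) and Timp3 at 2117 and 3366. Of 19 measured IGF and TGF-beta genes 2 were higher and 2 lower, with a median of -0.10: Igf1 was at 422 and 215 CPM, and Inhba, an activin subunit, at 52.8 and 118. Among 8 measured interferon-stimulated genes 3 were 2-fold lower, with a median of -0.79, and Iigp1, an immunity-related GTPase, was at 221 and 62.7 CPM.

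Glucocorticoid-responsive genes showed no common direction across the gates, with list medians of -0.20 in the macrophage, 0.41 in the Pecam1/Cdh5, -0.30 in the fibroblast and -0.02 in the smooth muscle gate. Fkbp5, a chaperone of the glucocorticoid receptor, was at 36.5 and 115 CPM in the macrophage gate, 32.9 and 113 in the Pecam1/Cdh5 gate and 54.0 and 164 in the fibroblast gate, where it was the 1 of 13 measured genes past 2-fold. In the smooth muscle gate 0 of 10 were higher and 2 lower, Cdkn1a, a cell cycle inhibitor (414 and 197 CPM), and Nfkbia, an inhibitor of NF-kB (1132 and 577). In the macrophage gate 2 of 12 measured genes were 2-fold higher and 1 lower; Sgk1, a kinase gene, was at 133 and 388 CPM and Errfi1, an EGF receptor inhibitor, at 291 and 113. In the Pecam1/Cdh5 gate 3 of 13 were higher, Mt1, a metallothionein, at 552 and 1376 CPM and Lcn2, lipocalin-2, at 63.3 and 154. The Lcn2 ratio was 1.20 and took the opposite sign in 3 alternatives, -1.27 with doubled gates being the farthest.

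**Figure D4:**
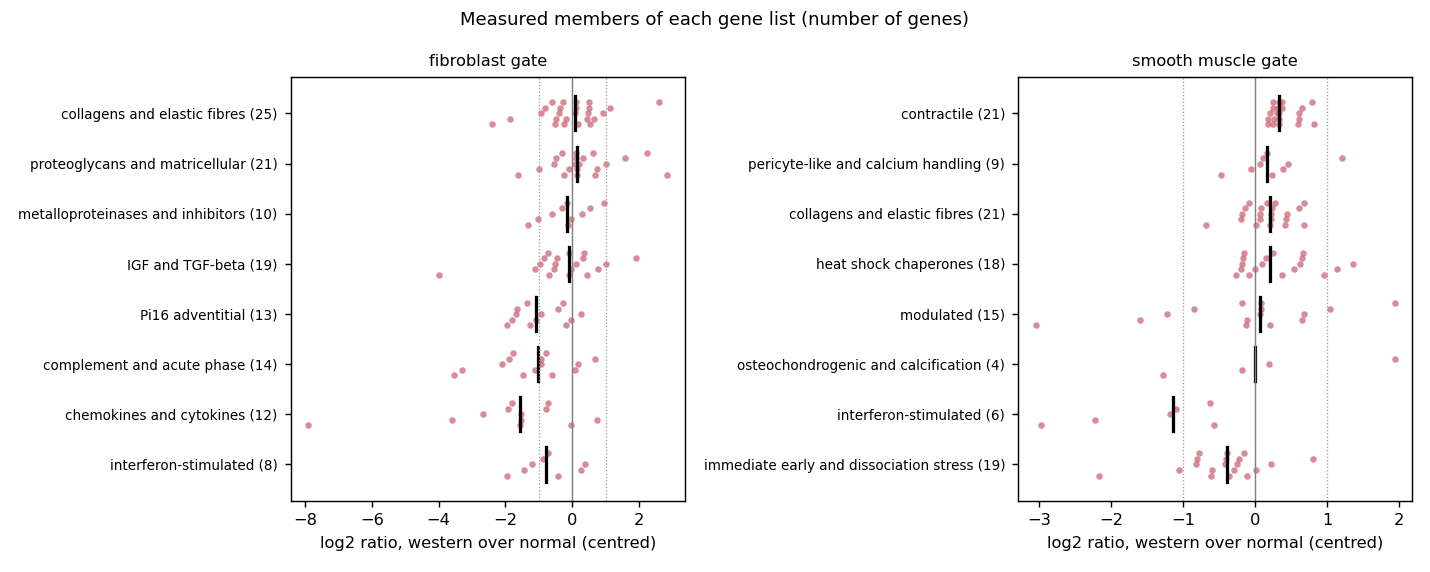
Centred log2 ratio of western over normal diet for each measured gene of 8 lists in the fibroblast gate (left) and 8 in the smooth muscle gate (right); points are genes, black ticks list medians and dotted lines 2-fold, with numbers of measured genes in brackets. The fibroblast chemokine median is -1.55, and all 21 contractile genes lie between 0.18 and 0.82.

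In the smooth muscle gate 4.55% of genes passed 2-fold in either direction. Of 3206 measured genes, 21 were at least 2-fold higher (0.655%) and 125 lower (3.9%), or 0.66% and 3.74% over barcodes in exactly 1 gate. Only 14 of the lower genes were as abundant in the gate as outside it, in the library where they were higher. All 21 measured contractile genes had a positive ratio between 0.18 and 0.82, none reached 2-fold, and their median was 0.33, against -0.03 in WT. Acta2, smooth muscle actin, was at 14005 and 18969 CPM, Tagln, transgelin, at 8007 and 12704, Actg2 at 130 and 236 and Des, desmin, at 96.0 and 178. On normal diet 13.2% of thinned barcodes in the gate held at least 3 B cell marker UMIs and 8.30% at least 3 erythroid marker UMIs, against 0.0290% and 0.0726% on western diet. Erythroid markers in the gate summed to 7003 and 51.4 CPM. The contribution of that RNA to the contractile ratios was not tested.

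Modulated-state genes were split in LysM-DKO. Of 15 measured, 2 were at least 2-fold higher and 3 lower, with a median of 0.07; WT gave 10 and 1 with 1.36, and the difference was not tested. The higher members were Spp1 (34.9 and 140 CPM, ratio 1.93, 0.52 without the deepest barcodes) and Fn1 (1129 and 2432, 1.04). Both had higher levels outside the gate on western diet, 2374 and 4566 CPM. The lower members were C3 (117 and 14.9 CPM), Dcn (578 and 201) and Cd44, a hyaluronan receptor (80.1 and 35.8), where WT had C3 at 33.1 and 181 and Dcn at 320 and 1477. Of 24 osteochondrogenic genes 4 were measured, Spp1 among them: Mgp, matrix Gla protein, an inhibitor of calcification, was at 9139 and 8424 CPM, Ank at 51.6 and 61.4, and Cytl1 at 92.9 and 40.1. None of 21 collagens and elastic fibre genes passed 2-fold, with a median of 0.20; Eln, elastin, was at 1175 and 1086 CPM and Col3a1 at 609 and 1016.

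Among stress-response genes of the smooth muscle gate, 2 of 18 chaperones were higher and 2 of 19 immediate early genes lower by 2-fold. Hspb1 was at 1235 CPM (1220 to 1249) and 3320 CPM (3304 to 3335) (ratio 1.36), and Hsph1, an HSP110 chaperone, at 232 and 534 (1.14). Cacybp, a calcyclin-binding protein gene, was at 98.3 and 228 CPM. The immediate early genes were Myc (84.0 and 19.5 CPM) and Nr4a1 (431 and 216), Nr4a1 at -1.06 and at -1.0 without centring. The named lower genes included Csrnp1 (208 and 81.9 CPM, ratio -1.41), Ppp1r10 (383 and 162, -1.31), Wsb1 (367 and 157, -1.29), the X-linked helicase gene Ddx3x (787 and 387, -1.09) and Midn (230 and 114, -1.07). At no more than 5% mitochondrial UMIs, Wsb1, Ddx3x and Midn had ratios between -0.79 and -0.98. WT gave 412 and 178 CPM for Wsb1. For Ddx3x, the X-linked partner of Ddx3y, diet and the sex difference between the libraries cannot be told apart.

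Rgs5, a G protein regulator of arterial smooth muscle and pericytes, was at 1020 and 2452 CPM, a ratio of 1.20 (0.99 with gates on thinned counts). It was the 1 gene past 2-fold among 9 measured in its list, where Abcc9, a potassium channel subunit, was at 168 and 242 CPM and Pdgfrb at 134 and 101. Slc22a3, an organic cation transporter, was at 49.5 and 181 CPM (ratio 1.81), and in WT at 7.87 and 69.0. Interferon-stimulated genes were lower here as well, 4 of 6 by 2-fold, with a median of -1.14 that was -0.71 without barcodes holding lymphoid or neutrophil UMIs. H2-K1 was at 710 and 159 CPM in the gate and 1658 and 547 outside it.

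Across the 4 gates 2051 genes were measured in all of them, and those with the largest least ratio in each direction are described. The lower ones were Apoe, Hmox1, Esr1, C3, Crem and Tuba1b, and the higher ones included Spp1, Fn1, Hspb1, Erh and Hsph1. The gates share barcodes, so they are not separate readings. On normal and western diet, 449 and 300 Pecam1/Cdh5 barcodes and 176 and 120 fibroblast barcodes also passed the smooth muscle gate. As given above, Hspb1 in the macrophage gate and Spp1 in the smooth muscle gate fell under 2-fold in an alternative. Hmox1 was between 302 and 2593 CPM on normal and between 14.7 and 366 on western diet. Crem, a cAMP-response repressor, lay between 104 and 151 and between 23.1 and 38.2 CPM, and Tuba1b, a tubulin gene, between 112 and 194 and between 45.0 and 64.7. Spp1 was between 20.4 and 130 CPM on normal and between 140 and 1931 on western diet. Erh, a small nuclear protein gene, was between 42.0 and 47.7 and between 83.8 and 110 CPM.

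**Figure D5:**
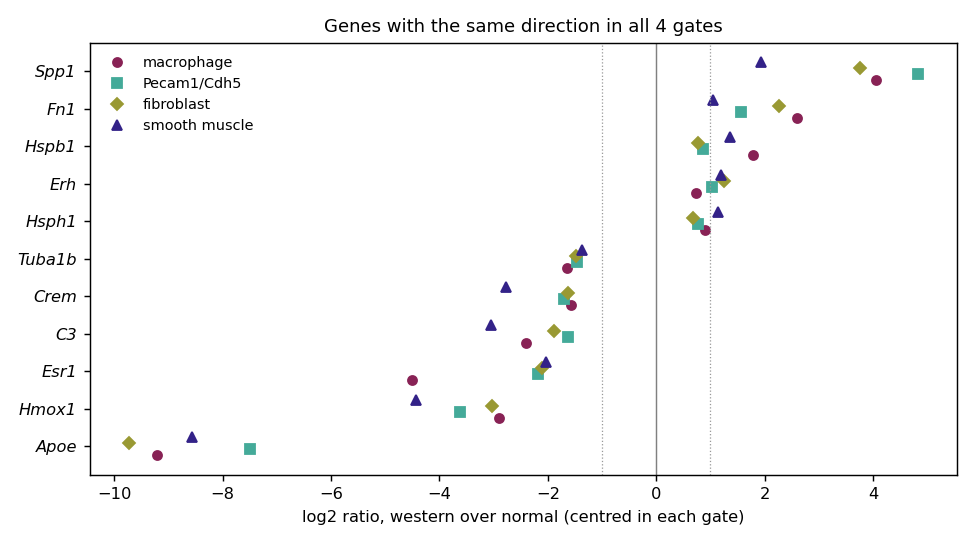
Centred log2 ratio of western over normal diet in the macrophage, Pecam1/Cdh5, fibroblast and smooth muscle gates for genes with the same direction in all gates; each symbol is 1 gate of 1 library pair and dotted lines mark 2-fold. Apoe lies between -7.50 and -9.73, and Spp1 between 1.93 and 4.83. Some barcodes are in more than 1 gate.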

How the data were processed

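Each library was made from aorta cells with 10x Genomics 3' v3.1 chemistry, per the labels' protocols. The deposited matrices hold UMI counts per gene and barcode as whole numbers, which the authors made with Cell Ranger 6.0.1 (normal diet) or 6.1.2 (western diet), per the file headers; the submitters' processing notes name Cell Ranger 6.1.2, Seurat 4.1.0 and mm10. All features of the 2 matrices (32285) were used. Barcodes were gated as described, UMIs were summed per gate and scaled to CPM, and ratios were computed with numpy 2.4.6 and scipy 1.17.1. Levels have exact Poisson and shares exact binomial intervals (Clopper-Pearson); differences of shares have Newcombe intervals, and ratios intervals from the exact binomial split of their UMIs. Beside 0 UMIs, 3 counts are the upper limit, at most 4.41 CPM in any of the gates of the LysM-DKO libraries. That limit was 6.50 CPM in the macrophage gate of WT on normal diet. In the smaller sets of barcodes within the macrophage gate it lies higher than in the whole gate. No doublet caller was run; barcodes in several gates and the 5% with the most UMIs were left out as alternatives.

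Named genes were the 6 highest and 6 lowest ratios per gate among genes of at least 100 CPM on average. They also needed a UMI in at least 10% of barcodes of the higher library, a level there at or above the other barcodes, and an interval apart from 0. Across gates, 6 of each direction were taken by their least ratio among genes measured in every gate with the same sign, without these further limits. Mitochondrial, ribosomal, hemoglobin, immunoglobulin, gate and unnamed genes and Xist, Tsix, Ddx3y, Eif2s3y, Kdm5d and Uty, but not other X-linked genes, were left out of both rankings. From each list, the 3 members with the highest levels and the 3 with the largest ratios were taken, and some others past 2-fold were named after their values were seen. Some genes that this rule takes are not reported here. Mx1 is not analysed here, and Ccl19, Ccl21a and Aldoa were left out because their symbols stand on more than 1 row. The members and lists were chosen with earlier results of these data known. On simulated counts for the macrophage gate (3017 genes), 96.0% of intervals held the true ratio, and all 81 genes changed 4-fold but 1 of 90 changed 1.5-fold passed 2-fold. These counts were drawn as independent Poisson counts, the error the intervals assume. The simulation thus checks the calculation and not the spread between barcodes or mice. Alternatives were 12 planned and 2 added after the data were seen.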

Additional observations from a re-analysis of the deposited data

Results flagged for a closer look

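Of 344 gene and gate pairs checked, 5 were at least 2-fold lower on western diet in the LysM-DKO libraries and at least 2-fold higher in the WT libraries, and with 1 library per group the difference was not tested. In the fibroblast gate these were Saa3, with a log2 ratio of -3.30 in LysM-DKO and 7.47 in WT, and Lbp, with -2.11 and 3.23. The WT normal diet level of Saa3 was 0.955 CPM, which is the level of 3 UMIs in that gate. As given above, Saa3 in LysM-DKO rested on a few barcodes. The Lbp ratio in LysM-DKO was under 2-fold without the 5% of barcodes with the most UMIs. In the smooth muscle gate they were the matrix proteoglycan gene Dcn, with -1.59 and 2.18, the complement gene C3, with -3.04 and 2.43, and Cytl1, a gene of cartilage cells, with -1.28 and 1.39. All 3 smooth muscle genes had higher levels outside the gate in both LysM-DKO libraries: Dcn stood at 3149 and 7034 CPM there, C3 at 438 and 333, and Cytl1 at 380 and 2013.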

How the results depend on the processing

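The share of barcodes per gate, as western minus normal diet in percentage points, kept its sign in every alternative that gave one. Over barcodes in exactly 1 gate it was -0.616 for macrophage, -4.74 for Pecam1/Cdh5, -2.79 for fibroblast and 41.6 for smooth muscle barcodes. In the same order it was -2.83, -10.7, -8.57 and 23.1 with at least 4000 UMIs, -0.556, -5.03, -0.891 and 29.3 with at most 5% mitochondrial UMIs, and -2.14, -12.5, -9.92 and 30.1 without barcodes holding T cell, B cell or neutrophil UMIs. For Pecam1/Cdh5, fibroblast and smooth muscle barcodes it was -5.09, -2.69 and 48.4 with gates on thinned counts and -4.23, -2.90 and 52.3 with doubled thresholds. The smooth muscle value was 38.4 without the 5% of barcodes with the most UMIs and 38.4 without chondrocyte UMIs. Counts of genes at least 2-fold higher and lower moved with the level asked for: at 20 CPM they were 302 and 374 (macrophage), 97 and 281 (Pecam1/Cdh5), 115 and 276 (fibroblast) and 46 and 292 (smooth muscle), and at 200 CPM 35 and 50, 18 and 22, 14 and 42, and 9 and 37. Counts of higher genes were 197 (macrophage) and 223 (Pecam1/Cdh5) in exactly 1 gate, 131 (Pecam1/Cdh5) with thinned and 88 with doubled gates, and in fibroblasts 40 with equal weight, 40 without the deepest barcodes and 39 without chondrocyte UMIs. Counts of lower genes in the Pecam1/Cdh5 gate were 225 in exactly 1 gate, 187 with thinned gates, 184 with equal weight and 57 among genes at or above their level outside. In the smooth muscle gate they were 67 with thinned gates, 60 with doubled gates, 75 without T cell, B cell or neutrophil UMIs and 14 among genes at or above their level outside. Of 141 gene values at least 2-fold in size that were followed through the alternatives, only 2 genes, both of the Pecam1/Cdh5 gate, changed sign. Mmrn1 went from -1.59 to 0.15 in exactly 1 gate. Lcn2 went from 1.20 to -0.11 with thinned gates, -1.27 with doubled gates and -0.11 without the deepest barcodes. Prg4 of the fibroblast gate, named after its value was seen and not among the 141, also changed sign in exactly 1 gate. The causes were not tested. No paired analysis was possible because each group is 1 library. Depth limits the macrophage gate most, where 3 UMIs are 2.80 CPM on normal and 4.41 CPM on western diet.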

Other observations

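Esr1, the estrogen receptor alpha gene, stood apart in 1 of the 4 libraries, where it had a similar level in every gate. It was between 108 and 115 CPM in the 4 gates of the LysM-DKO normal diet library and between 4.41 and 27.7 in the LysM-DKO western diet library. In the WT libraries Esr1 was between 13.01 and 34.1 CPM on normal and between 12.7 and 35.2 on western diet.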
